A study of Drosophila melanogaster with 2 samples.

Results

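Chromosome 4 of Drosophila melanogaster carried 478 of the 28423 peaks in the relaxed list that was called on both replicates of a Mio-GFP ChIP-seq experiment together. The members were taken as every peak of that pooled list on chromosome 4 in the dm6 build, and they were set against the chromosome 4 peaks of the list of each replicate, 601 of 29999 in replicate 5 and 264 of 30000 in replicate 1. A relaxed list holds peaks together with background regions, so a member is a ranked candidate region and not by itself a bound site. The assay was chromatin immunoprecipitation with an antibody against GFP, followed by sequencing, on whole wandering third-instar larvae with males and females pooled. All animals came from 1 transgenic strain that stably makes Mio with GFP at its C-terminal end. There was 1 group of 2 biological replicates, with no untagged or treated group, and the control alignment was not analysed here. A whole larva mixes many tissues, and fewer cells with a bound site cannot be told apart from less binding per cell. The peaks of 1 list are not replicates of a condition, so no test was made: shares are given with their 95% Wilson interval, which covers counting error over peaks or genes only, and read depth is unknown.

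Mio, now named Mondo, is the fly relative of the glucose-responsive mammalian factors MondoA and ChREBP. It binds DNA with its partner Mlx through a basic helix-loop-helix leucine zipper domain, and such proteins recognise E-box sequences of the form CANNTG, with CACGTG as the best known. Chromosome 4 is the smallest fly chromosome. Its gene-bearing arm is rich in transposable elements, is coated by the heterochromatin protein HP1a and by the protein POF, and yet holds many genes that are expressed.

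The sequences of chromosome 4 on which the results turn are shown first. The only member that also stood in the optimal list, the list of peaks that passed the authors' reproducibility threshold, had its summit at position 424816, in intergenic sequence at chr4:424636-424995 and 19095 bp downstream of the nearest protein-coding start site, that of lgs, which encodes a co-factor of Wnt signalling. The 300 bases around that summit, at chr4:424666-424965 on the plus strand of dm6, are printed with the matches to E-boxes (CANNTG), to TTAAAA on either strand and to the reverse complement of CACACA in capitals.
Optimal peak: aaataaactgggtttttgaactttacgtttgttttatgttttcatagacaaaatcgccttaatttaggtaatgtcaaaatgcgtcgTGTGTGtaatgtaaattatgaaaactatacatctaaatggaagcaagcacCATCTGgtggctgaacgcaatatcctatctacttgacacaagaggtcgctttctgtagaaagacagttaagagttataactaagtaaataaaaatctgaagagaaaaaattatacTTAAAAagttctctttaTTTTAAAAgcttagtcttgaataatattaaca

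The E-box CACGTG lay within 50 bp of the summit of 3 members, and it is shown here for the 2 whose window held no UTR. Peak 346, named by its place in the signal order of chromosome 4, lay in an intron of ey with its summit at 703018, and peak 356 lay in a coding exon with its summit at 1190216. Capitals mark the CANNTG matches, CACGTG among them, in the windows chr4:702968-703068 and chr4:1190166-1190266, plus strand, dm6.
Peak 346: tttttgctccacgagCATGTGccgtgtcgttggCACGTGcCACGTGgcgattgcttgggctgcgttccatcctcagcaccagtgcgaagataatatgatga
Peak 356: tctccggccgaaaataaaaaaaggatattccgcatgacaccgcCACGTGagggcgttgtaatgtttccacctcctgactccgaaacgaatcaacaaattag

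Strong members are shown for contrast, because the windows of the strongest peaks held other E-boxes or none. Peak 2 lay upstream of PlexA, peak 5 between Asator and zfh2, and peak 7 upstream of mav. Their windows were chr4:1027242-1027342, chr4:497832-497932 and chr4:626167-626267, plus strand, dm6, and capitals mark E-boxes (CANNTG) as well as matches to TTAAAA and the reverse complement of the word GAGAG.
Peak 2: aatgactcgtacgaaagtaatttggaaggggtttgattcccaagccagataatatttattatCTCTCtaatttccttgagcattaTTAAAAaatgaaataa
Peak 5: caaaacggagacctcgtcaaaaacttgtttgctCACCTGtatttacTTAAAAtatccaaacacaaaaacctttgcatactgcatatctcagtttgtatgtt
Peak 7: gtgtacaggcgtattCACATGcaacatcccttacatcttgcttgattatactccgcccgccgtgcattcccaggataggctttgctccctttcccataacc

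A last set shows members whose window held TATCGATA, the core of the element bound by the factor DREF, inside a copy of the transposable element INE-1. Capitals mark TATCGATA and, on either strand, matches to TTAAAA, and the windows were chr4:180784-180884, chr4:1228081-1228181 and chr4:54823-54923, plus strand, dm6.
Peak 53: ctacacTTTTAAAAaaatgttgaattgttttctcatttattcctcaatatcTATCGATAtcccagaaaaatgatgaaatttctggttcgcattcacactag
Peak 72: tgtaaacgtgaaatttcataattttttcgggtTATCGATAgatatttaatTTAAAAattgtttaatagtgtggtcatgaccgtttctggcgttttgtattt
Peak 158: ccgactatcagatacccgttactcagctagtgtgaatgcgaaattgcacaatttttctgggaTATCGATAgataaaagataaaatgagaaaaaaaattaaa

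Chromosome 4 was densely covered with relaxed peaks in the pooled list and in replicate 5, and not in replicate 1. The pooled list held 354.6 peaks per Mb of chromosome 4, against 210.6 per Mb over the 5 large arms (2L, 2R, 3L, 3R and X) together, whose separate densities ran from 187.9 to 234.4. Replicate 5 had 445.8 peaks per Mb on chromosome 4 and 221.5 on the large arms. Replicate 1 had 195.8 peaks per Mb on chromosome 4 and 224.3 on the large arms, so the chromosome stood above the large arms in one replicate and below them in the other. The same turn was seen on X, where replicate 5 had 285.1 and replicate 1 had 159.2 peaks per Mb. Replicate 5 listed 2.28 times as many peaks as replicate 1 on chromosome 4 and 1.79 times as many on X, while on the 4 large autosomal arms the ratio was 0.822 to 0.933. The sexes were pooled in both replicates, in proportions not given in the sources used here. The part of the sex mix, of library depth or of the shared control in this difference was not tested.

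**Figure D1:**
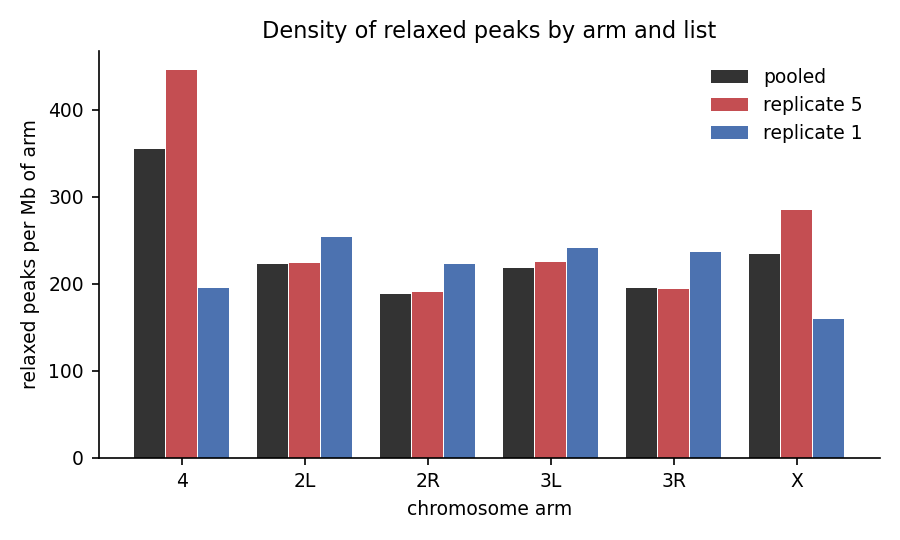
Relaxed peaks per Mb of each chromosome arm in the pooled list and in the lists of replicates 5 and 1. Chromosome 4 reached 354.6, 445.8 and 195.8 peaks per Mb, and X is the only large arm where replicate 5 exceeded replicate 1.

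Along the chromosome the members ran from position 670 to position 1307180 of its 1348131 bp, with a median spacing of 1595 bp. Counted in 100-kb bins from the left end, the first 7 bins held 42, 38, 25, 31, 52, 38 and 61 pooled peaks, and the next 6 held 19, 32, 31, 48, 41 and 18. No complete bin was empty, whereas 109 of the 1323 complete bins of the large arms were. The fullest bin, 600001 to 700000, held 11 protein-coding genes, among them gw, myo, mav and the start of ey, and the sparse bin that follows it held 3, bt among them. The median over the 13 complete bins was 38 peaks, against 19 on the large arms, and 13.7% of large-arm bins reached 38. In replicate 5 the median of chromosome 4 was 48, a value that 8.09% of large-arm bins reached. In replicate 1 it was 19, which 64.8% of large-arm bins reached. Only 2 pooled peaks lay in the last stretch beyond 1300001, where transposable elements covered 95.4% of the bases, and the longest stretch without a summit ran from 1264423 to 1306201, a gap of 41778 bp.

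The density of chromosome 4 was not matched by strong peaks. The deposited signal value, the caller's own strength measure on a scale not given in the sources used here, had a median of 19.7 on chromosome 4 and 21.0 on the large arms in the pooled list. The lower quartiles were alike, 16.3 on chromosome 4 and 16.8 on the large arms. The upper quartile was 25.3 on chromosome 4 and 30.2 on the large arms, and the 90th percentile was 33.1 on chromosome 4, against 47.9 on the large arms and 44.2 to 50.999 on each of them. The highest value on chromosome 4 was 83.9, while each large arm reached a value between 556.0 and 769.9. The strongest member therefore took rank 851 of the pooled list. In the separate lists the best rank on chromosome 4 was 906 in replicate 5 and 354 in replicate 1.

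The share of an arm's own peaks that stood among the strongest was lower on chromosome 4 in the pooled list and in replicate 5. In replicate 1 no difference was detectable beyond counting error. Among the 5000 strongest peaks of each list were 32 of 478 chromosome 4 peaks (6.69%, interval 4.78 to 9.30) and 17.7% of large-arm peaks in the pooled data. For replicate 5 the shares were 8.82% on chromosome 4 (interval 6.81 to 11.4) and 16.7% on the large arms. For replicate 1 they were 14.4% on chromosome 4 (interval 10.7 to 19.1) and 16.7% on the large arms, so that this interval held the large-arm share. These shares depend on how many peaks an arm had in the list. The counts behind them were 53 on chromosome 4 and 4911 on the large arms in replicate 5, and 38 and 4950 in replicate 1. Chromosome 4 has 1348131 bp and the large arms 132532477 bp. In replicate 5 the lower share therefore did not mean fewer strong peaks per Mb, whereas in the pooled list it did. Replicate 1, on its count of 38, also had fewer strong peaks per Mb on chromosome 4 than on the large arms. X, the other arm with an excess of peaks in replicate 5, had 12.5% of its replicate 5 peaks among the 5000 strongest.

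**Figure D2:**
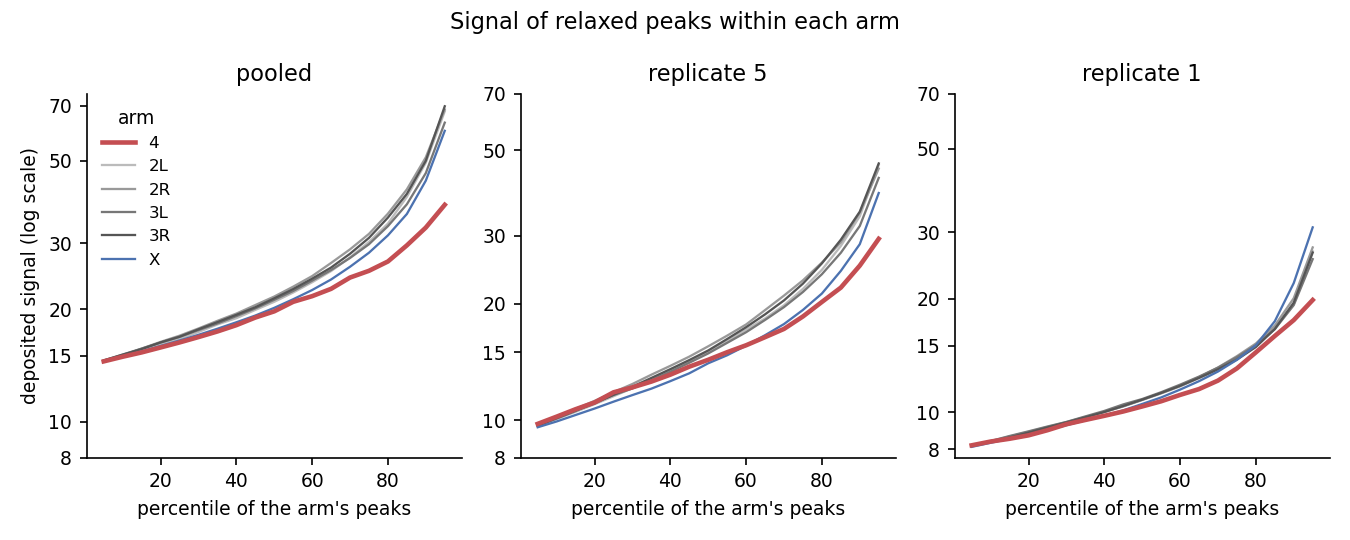
Deposited signal (log scale) at each percentile of an arm's own relaxed peaks, for chromosome 4 and the 5 large arms in the 3 lists. The chromosome 4 line runs with the others in the lower part and leaves them in the upper part, with a 90th percentile of 33.1 against 47.9 for the large arms together in the pooled list.

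One chromosome 4 member had an optimal summit within 100 bp, 1 of 478 (0.209%, interval 0.0369 to 1.18), against 1116 of 27911 large-arm peaks (4.00%, interval 3.77 to 4.23). Over all pooled relaxed peaks the share was 4.03%. The boundary was one of signal. The lowest signal of an optimal peak was 73.6, 1145 pooled peaks reached it, and all 1145 had an optimal summit within 100 bp. One member, at 83.9, lay above that value and 477 lay below. The optimal peak had signal 27.4 and rank 4487 in replicate 5, while replicate 1 gave it 53.4 and rank 354, so it ranked far higher in replicate 1. The member just outside was the PlexA promoter peak, with pooled signal 72.7 at rank 1170. Both peaks had the highest −log10 q-value of the pooled list, 3.41, which 1276 pooled peaks shared, so the q-value did not separate them.

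No member was strong in both replicates. With the 1146 strongest peaks of each replicate taken, as many as the optimal list holds, 1 member was matched to such a peak in replicate 5 and 5 in replicate 1. Of the 478 members, 0 were matched to one in both, which allows a share of up to 0.797% by the Wilson interval, against 561 of 27911 large-arm peaks (2.01%). The optimal peak itself, at rank 4487 in replicate 5, did not meet this measure. On the large arms 1116 peaks had an optimal summit, so the measure did not set the optimal list. In the older dm3 build the authors' lists held 497 relaxed and 2 optimal peaks on chromosome 4. The signals of those optimal peaks were 84.1 and 72.6, the lowest optimal signal was 68.3, and their summits lay 602476 bp apart, the same distance as between the optimal peak and the PlexA peak in dm6.

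Fewer chromosome 4 peaks than large-arm peaks were found again in both replicates. Summits within 100 bp in both replicate lists were present for 60 of 478 members (12.6%, interval 9.88 to 15.8), against 23.0% of large-arm peaks and 20.8% of X peaks, and 22.8% over all pooled peaks. The lower share was seen against the replicate 1 list, which held 264 peaks on chromosome 4, fewer than the 478 members. Replicate 5 matched 305 members (63.8%, interval 59.4 to 68.0), against 59.8% of large-arm peaks. Replicate 1 matched 125 members (26.2%, interval 22.4 to 30.3), against 44.1% on the large arms and 36.0% on X. A further 108 members (22.6%) were matched in neither list, against 19.1% on the large arms. Between the replicate lists themselves, 57 of the 264 replicate 1 peaks on chromosome 4 were matched in replicate 5. That was 21.6% (interval 17.1 to 26.9), against 21.3% on the large arms. In the other direction 57 of 601 replicate 5 peaks were matched in replicate 1 (9.48%), against 21.6% on the large arms. Both chromosome 4 shares count 57 peaks, over 264 and over 601, so they differ only through the lengths of the lists. The 21.6% was reached against a replicate 5 list with 445.8 peaks per Mb on chromosome 4 and 221.5 on the large arms. Why few peaks coincided was not tested.

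Weaker signal went with fewer matches on chromosome 4 and on the large arms, and the gap was therefore also read within bins of equal signal. Below a signal of 25.3 the chromosome 4 shares were 0.833%, 2.52% and 13.4% in 3 rising bins, and the large-arm shares were 1.21%, 4.23% and 15.1%, each inside the chromosome 4 interval. Between 25.3 and 33.1 it was 26.4% on chromosome 4 (19 of 72, interval 17.6 to 37.6) and 32.1% on the large arms. Above 33.1 it was 43.8% on chromosome 4 (21 of 48, interval 30.7 to 57.7) and 66.7% on the large arms. Chromosome 4 peaks in that last bin were also weaker, with a median signal of 38.3 against 46.7, so signal was not fully matched there.

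Where a member was matched in both replicates, its strengths in them were only weakly related. Across the 60 members, Spearman's rho of the replicate signals was 0.10 and Pearson's r of their log10 values was 0.13, and across 6411 large-arm peaks they were 0.54 and 0.66. These values describe peaks of the same 2 libraries with a shared control, and the range of signal was narrower on chromosome 4. The median ranks of the members were 11961.5 in replicate 5 and 16372 in replicate 1, against 6931 and 6324 on the large arms.

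**Figure D3:**
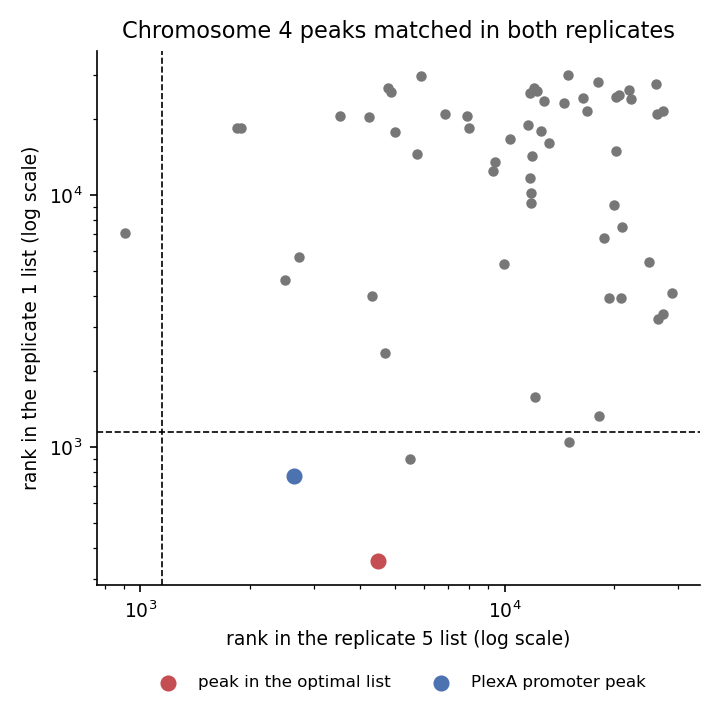
Rank of the 60 chromosome 4 peaks matched in both replicates, in the replicate 5 list and in the replicate 1 list (both log scales, 1 is strongest). Dashed lines stand at rank 1146, the length of the optimal list, and no point lies below and left of both; the optimal peak stands at 4487 and 354 and the PlexA promoter peak at 2635 and 771.

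The 10 strongest members lay in a few gene neighbourhoods. Besides the intergenic optimal peak, the leading positions were promoters of PlexA, RpS3A and mav, the 5′ UTR of myo, and sites around Asator, zfh2 and ci. The second member (chr4:1027112-1027471) had its summit 191 bp upstream of PlexA (FBgn0025741), which encodes a semaphorin receptor used in axon guidance. It had signal 72.7 in the pooled list, 34.5 in replicate 5 (rank 2635) and 37.7 in replicate 1 (rank 771). Each replicate list has its own signal scale, so replicates are compared by rank, and by rank this was the most even of the first 4 members.

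The third (chr4:67043-67402) lay 16 bp upstream of RpS3A (FBgn0017545), which encodes a protein of the small ribosomal subunit. Its signal was 63.5 pooled, 24.998 in replicate 5 (rank 5493) and 35.0 in replicate 1 (rank 899). The fourth (chr4:695125-695484) lay in the 5′ UTR of myo (FBgn0026199), the gene of the TGF-β family ligand myoglianin, 750 bp inside its start. It had signal 62.7 pooled, 52.6 in replicate 5 (rank 906) and 14.2 in replicate 1 (rank 7077). That peak was the strongest of chromosome 4 in replicate 5, as the optimal peak was in replicate 1, so the replicates differed in their leading site.

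The fifth member lay 3928 bp upstream of zfh2, the gene of a zinc-finger homeodomain transcription factor, with signal 55.8 pooled, 26.8 in replicate 5 (rank 4697) and 21.9 in replicate 1 (rank 2362). The sixth and the ninth lay close together at Asator, a gene for a protein kinase, with pooled signals of 51.9 and 48.7. At the sixth the replicate signals were 16.7 in replicate 5 (rank 12132) and 26.5 in replicate 1 (rank 1589). At the ninth only replicate 1 had a matched peak, with 25.9 (rank 1666). The Asator pair thus ranked higher in replicate 1.

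The seventh member lay 186 bp upstream of mav (FBgn0039914), which encodes the TGF-β family ligand maverick, and had signal 51.7 pooled, 40.0 in replicate 5 (rank 1838) and 9.93 in replicate 1 (rank 18384). The eighth, 3070 bp upstream of ci, the transcription factor gene of the Hedgehog pathway, had 51.2 pooled and 36.5 in replicate 5, with no matched peak in replicate 1. The tenth lay in the 3′ UTR of RpS3A, with 48.3 pooled and 32.8 in replicate 5, and was also unmatched in replicate 1. These 3 ranked higher, or were listed only, in replicate 5.

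Promoters made up a smaller share of the pooled peaks on chromosome 4 than on the large arms together, although most of its genes had a promoter peak. Of the 478 members, 102 had their summit within 500 bp of a protein-coding start site (21.3%, interval 17.9 to 25.2), against 7743 of 27911 large-arm peaks (27.7%). Over chromosome 4 and the large arms together it was 27.6%. The separate large arms ran from 24.8% on 3L, inside the chromosome 4 interval, to 31.9% on 2R. The shares were 18.0% on chromosome 4 and 29.2% on the large arms in replicate 5, and 18.6% and 21.5% in the same order in replicate 1, where the chromosome 4 interval, 14.3 to 23.7, held the large-arm value. Chromosome 4 also has fewer bases that close to a start site, 8.55% against 11.5%. Relative to those bases the promoter share was 2.50 times as high on chromosome 4 and 2.42 times as high on the large arms in the pooled list. That ratio was 2.10 on chromosome 4 and 2.55 on the large arms in replicate 5, and 2.17 on chromosome 4 and 1.87 on the large arms in replicate 1.

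Promoter peaks were the stronger ones on chromosome 4 as elsewhere, with a smaller margin. Their median signal was 24.0 on chromosome 4 and 27.0 on the large arms, and that of the other peaks was 19.1 on chromosome 4 and 19.7 on the large arms. At the 90th percentile promoter peaks reached 40.5 on chromosome 4 and 67.0 on the large arms. The remaining peaks reached 29.8 on chromosome 4 and 39.2 on the large arms. In the pooled list the lower 90th percentile of chromosome 4 was therefore seen both at promoters and away from them.

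Counted by gene, 64 of the 80 protein-coding genes of chromosome 4 had a pooled promoter peak (80%, interval 69.95 to 87.3), against 47.4% of large-arm genes and 54.2% of X genes. In replicate 5 it was 65 genes (81.25%), against 59.7% of X genes and 45.9% to 49.2% on the autosomal arms. In replicate 1 it was 39 genes (48.75%, interval 38.1 to 59.5), against 35.2% of X genes and 41.7% to 44.3% on the autosomal arms. Genes with a promoter peak in both replicates numbered 37 on chromosome 4 (46.25%, interval 35.7 to 57.1), against 28.2% to 31.0% on the large arms, and the peaks of a gene in the replicates could lie at different sites or starts. Chromosome 4 genes had more distinct start sites, 1.78 per gene against 1.40, and so more bases that could be counted. None of the 80 genes had an optimal promoter peak, which allows a share of up to 4.58%, while 851 of 13865 large-arm genes (6.14%) had one. The lowest large arm was X, with 103 of 2196 genes (4.69%, interval 3.88 to 5.66), an interval that reaches below 4.58%. The strongest promoter peak of a gene had a median signal of 28.2 on chromosome 4 and 32.4 on the large arms.

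**Figure D4:**
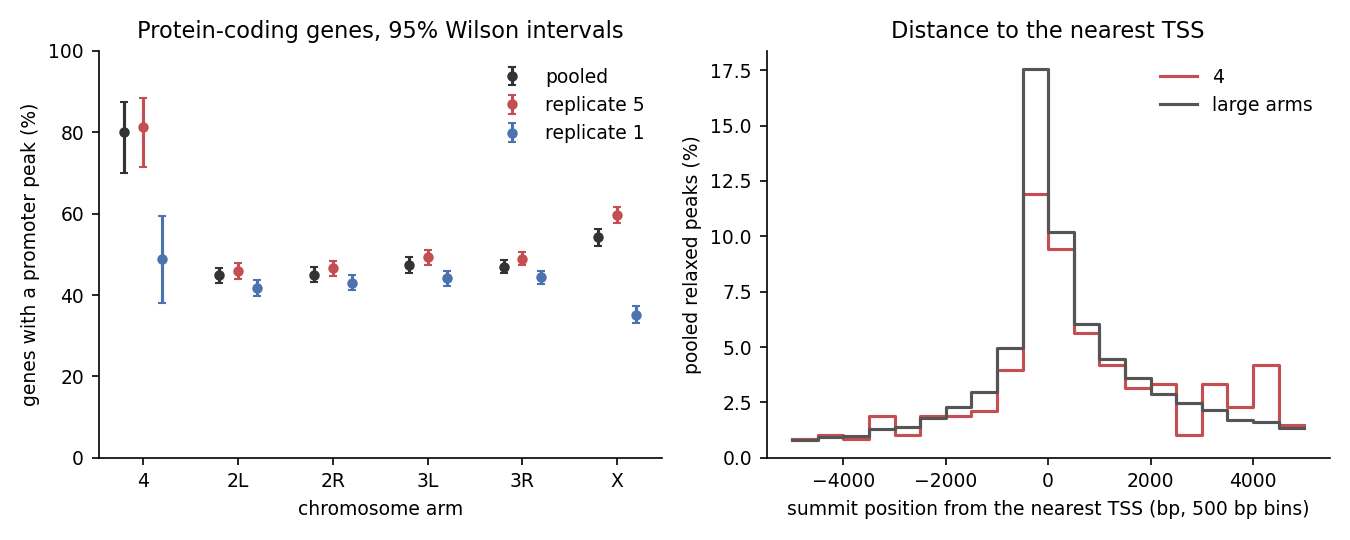
Left, percent of protein-coding genes of each arm with a relaxed peak within 500 bp of a start site, with 95% Wilson intervals, in the 3 lists; chromosome 4 stands at 80, 81.25 and 48.75. Right, percent of pooled peaks by summit position from the nearest start site in 500-bp bins, negative upstream, where the central bins are lower on chromosome 4 than on the large arms.

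Over all 80 genes, 64 (80%) had a pooled promoter peak and 37 (46.25%) had one in both replicates. Counts in 4 gene lists are given beside these shares, and none is read as a trait of its list. The 4 lists held 46 of the 80 genes and were drawn up with earlier results of these data known, so they describe the chromosome and carry no test. In the list of translation, energy and housekeeping genes, 11 of 11 had a pooled promoter peak, with a median strongest signal of 39.5, and 7 of 11 had one in both replicates. Among signalling and guidance genes it was 11 of 11, with a median of 28.3, and 4 in both replicates. Among transcription and chromatin genes it was 10 of 15, with a median of 34.6, and 7 in both. Among synapse and transport genes it was 5 of 9, with a median of 25.4, and 2 in both. Over all 80 genes these values were 64, 28.2 and 37.

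In the values that follow, the pooled signal is that of a gene's strongest promoter peak, and a replicate signal is that of the peak matched to it within 100 bp, unless another peak is named. Housekeeping genes were led by RpS3A. PMCA (FBgn0259214), the plasma membrane calcium pump, followed with a promoter signal of 44.6 pooled, 39.5 in replicate 5 and 9.93 in replicate 1. The divergent pair Tdg, a thymine DNA glycosylase gene, and Pur-alpha, a nucleic acid binding protein gene, had the same strongest promoter peak. It had 41.0 pooled and 41.8 in replicate 5, and none was matched in replicate 1. A weaker pooled peak near both starts, with its summit at 558222, had 22.6 and was matched in neither replicate. The promoter of gw, the gene of the microRNA silencing protein GW182, had 40.6 pooled and 36.3 in replicate 5 (rank 2344), with none matched in replicate 1. A second promoter peak of gw, with its summit at 660101, had 35.7 pooled, 13.2 in replicate 5 (rank 18191) and 28.8 in replicate 1 (rank 1329), so each replicate was high at a different gw peak. Rad23, whose protein acts in DNA repair and in delivery to the proteasome, had 39.5 pooled and 37.0 in replicate 5, with none in replicate 1. Another shared peak lay at the overlapping starts of apolpp, which encodes the main lipid carrier of the haemolymph, and Zyx, which encodes the adhesion protein zyxin. Its signal was 38.0 pooled, 26.3 in replicate 5 and 8.57 in replicate 1.

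In the signalling list PlexA and mav were followed by myo, whose start-site peak had 46.1 pooled and 39.2 in replicate 5, with none in replicate 1. PlexB (FBgn0025740), the second plexin gene, had 37.8 pooled, 28.0 in replicate 5 and 9.51 in replicate 1. The plexin pair differed mainly in replicate 1, where the PlexB peak took rank 20434 and the PlexA peak rank 771. Outside the lists, CG32017 had 43.3 pooled, 35.3 in replicate 5 and 16.7 in replicate 1. CaMKI, a calmodulin-dependent kinase gene, had 43.1 pooled, 26.6 in replicate 5 and 8.44 in replicate 1.

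Transcription factor genes were split. The Pax6 gene ey (FBgn0005558) had 42.4 pooled and 23.3 in replicate 5, and zfh2 had 41.5 pooled and 20.3 in replicate 5, both with none matched in replicate 1. At another start of ey, a peak with its summit at 707747 had 21.4 pooled, 12.4 in replicate 5 and 8.76 in replicate 1. Sox102F, a SoxD-type factor gene, had 37.7 pooled and 18.6 in replicate 5. Its strongest promoter peak in replicate 1, with 19.9, had its summit just over 100 bp from the pooled one and so was not counted as matched. The Wnt pathway factor gene pan, the fly TCF, had 37.1 pooled, 26.0 in replicate 5 and 10.1 in replicate 1. By contrast, onecut, fd102C, toy (the second Pax6 gene) and sv (a Pax2 gene) had a promoter peak in none of the lists, and Hcf had one in replicate 5 only. That depended on the 500 bp limit. Pooled summits beyond it lay 726 bp upstream of onecut (signal 36.0), 796 bp upstream of a start of sv (34.8) and 852 bp inside toy (22.3). Those named for onecut and sv were matched in both replicates. Mitf, the fly member of the MITF and TFEB family and like Mio a basic helix-loop-helix leucine zipper factor, was looked up after its values had been seen. Its strongest promoter peak had 35.4 pooled and 31.9 in replicate 5 (rank 3151), with none matched in replicate 1. At another start of Mitf, a peak with its summit at 1198985 had 31.1 pooled, 24.2 in replicate 5 (rank 5901) and 7.96 in replicate 1 (rank 29809), close to the end of that list.

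The synaptic genes named had lower pooled values. Ank, an ankyrin gene, had 30.1 pooled and 28.1 in replicate 5, with none in replicate 1. Cals, the calsyntenin gene, had 27.2 pooled and 22.2 in replicate 1 (rank 2289), with none matched in replicate 5, where its strongest promoter peak, more than 100 bp away, had 16.6 (rank 12235). The vesicle release genes Cadps and unc-13 had 25.4 and 25.3 pooled. In replicate 5 they had 23.7 and 20.9, and in replicate 1 neither was matched. Cadps had another promoter peak in replicate 1, more than 100 bp from the pooled summit, with 10.9 (rank 14440), and unc-13 had none there. The pooled Cadps peak is shared with the start of the kinase gene Dyrk3.

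Inside genes, members were most numerous in some of the long genes, with 20 in pan over 44945 bp, 15 in PMCA over 30725 bp, 13 each in Asator, zfh2 and unc-13, and 12 in Sox102F. The longest gene, bt, which encodes the giant muscle protein projectin, held 5 in 52075 bp. Only 4 of the 80 genes (CG32006, dpr7, fd102C and Mpv17) held no summit. Genes of chromosome 4 were long, with a median of 10090 bp against 2156 bp on the large arms, and sparser, at 59.3 against 104.6 per Mb. Of the members, 44.1% lay in introns, 20.5% between genes, 12.3% in coding exons, 11.9% in 3′ UTRs and 7.74% in 5′ UTRs. The large arms had 48.9%, 27.5%, 5.34%, 6.42% and 9.07% in the same order. Coding exons make up 18.7% and 3′ UTRs 8.08% of the bases of chromosome 4.

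Members lay in transposable elements far more often than large-arm peaks, and still less often than the bases of the chromosome. A summit fell in an annotated element for 67 of 478 members (14.0%, interval 11.2 to 17.4), against 0.57% of large-arm peaks. Elements cover 24.8% of chromosome 4 and 5.74% of the large arms, so the share of summits was 0.566 of the share of bases on chromosome 4 and 0.099 on the large arms. The small element INE-1 held 48 of these summits, 10.04% of members, and covers 7.22% of the bases. Of its 344 copies on the chromosome, 44 lay under a pooled summit. Their median signal was 21.1, their highest 34.1, and the strongest member in any element took place 42 on chromosome 4. Copies of 1 family are close in sequence, and the treatment of reads with several matches is another point not given in the sources used here.

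The sequence under the members was close to the chromosome in base composition. Windows of 50 bp to either side of a summit had a mean GC content of 35.0% ± 7.48 (SD over 478 windows) on chromosome 4 and 40.2% on the large arms. Windows tiled over the whole of chromosome 4 had 35.3%, so the members were no richer in GC than their chromosome. In replicate 5 the mean was 34.7% and in replicate 1 it was 36.5%.

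CACGTG was rare under the chromosome 4 peaks, and E-boxes of any kind were less frequent than under large-arm peaks. Both were also less frequent over all windows of chromosome 4 than over all windows of each large arm. In the pooled list E-boxes of any kind were somewhat more frequent than over the chromosome. Neither replicate list showed this beyond counting error, and replicate 5 lay on the other side of the chromosome share. CACGTG occurred in 3 of 478 windows (0.628%, interval 0.214 to 1.83), against 1.24% on the large arms, and in 0.668% of all windows of chromosome 4. The carriers were the 2 windows printed above and peak 331 at Cadps, all of low signal, 16.4 to 17.0. Peak 346, in the ey intron, held both CACGTG copies 1 base apart. CANNTG, counted with CACGTG and CAGCTG included, occurred in 34.5% of members (interval 30.395 to 38.889), against 38.909% on the large arms and 30.379% of all windows of chromosome 4, both just outside the interval. On chromosome 4 it occurred in 28.5% of the 601 replicate 5 windows, below the share of all windows. In replicate 1 it occurred in 32.6% of 264 windows, above that share. All windows of the separate large arms held CANNTG in 38.6% to 40.1% and CACGTG in 1.14% to 1.23%. Large-arm peaks were thus close to their own arms for both sequences. The optimal peak had CATCTG, and the PlexA window had no CANNTG.

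Of the 9 sequences searched, on both strands, CANNTG and CACACA were those for which the interval of the pooled members did not hold the share over all windows of chromosome 4. In the replicate lists the intervals of both held it. In replicate 5 the exceptions were TTAAAA (34.6%, interval 30.9 to 38.5) and TATCGATA (1.83%, interval 1.025 to 3.25), and replicate 1 had none. The values below are those of the pooled list. The word TTAAAA occurred in 31.4% of members, 19.996% of large-arm peaks and 28.2% of all windows of chromosome 4. GAGAG occurred in 9.83% of members, 13.8% of large-arm peaks and 9.25% of all windows. CACACA stood at 6.90% (interval 4.96 to 9.54), 10.3% and 4.90%, and CAGCTG at 1.67%, 4.51% and 2.22% in the same order. TATCGATA was found in 8 members (1.67%, interval 0.850 to 3.27), against 0.975% of large-arm peaks and 0.895% of all windows. Of those 8, 5 lay in INE-1, and 63 of the 344 INE-1 copies of the chromosome (18.3%) hold that sequence. The early-embryo element CAGGTAG was found in 4 members (0.837%), 0.412% of large-arm peaks and 0.584% of all windows. TGAGTCA, the AP-1 site, was found in 2 members (0.418%), 0.939% of large-arm peaks and 0.653% of all windows. Over all windows of the separate large arms, TTAAAA stood at 15.2% to 17.2%, GAGAG at 11.2% to 11.8% and CACACA at 7.58% to 9.19%. There CAGCTG stood at 4.07% to 4.36%, TATCGATA at 0.230% to 0.350%, CAGGTAG at 0.492% to 0.572% and TGAGTCA at 0.734% to 0.809%. A match of letters is a description and does not show that a factor binds there.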

How the data were processed

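Peak lists in narrowPeak format from 1 group of 2 biological replicates, numbered 5 and 1, were used. According to the deposited text files, each replicate list was called against a control alignment, the pooled list used both replicates with that control, and the optimal list came from all of these. The aligner, caller, versions and reproducibility threshold were not given in the sources used here. The deposited signal of a peak is the authors' value and was used to rank peaks within a list. The deposited −log10 q-value was used only to count peaks at its highest value. Read depth is unknown.

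Positions are 1-based in dm6. Genes, start sites and transposable elements came from Ensembl release 115 (BDGP 6.54) and sequence from the RefSeq Release 6 genome. Summits within 100 bp counted as matched, and a protein-coding start site within 500 bp of a summit made a promoter peak. The gene listed as Thd1 was matched as Tdg. Arms were compared by counts, shares with 95% Wilson intervals and quantiles, with no p-value, in Python 3.11.15 with pandas 2.3.3, NumPy 2.4.6 and SciPy 1.17.1. The counting steps were tested on simulated data.

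Members and lists were chosen with earlier results of these data known. Named regions were the 10 strongest pooled chromosome 4 peaks and the optimal peak. Named genes were those at the 25 strongest members and up to 4 of each of 4 role lists with the strongest promoter peak. Genes that hold many or no summits and those with no promoter peak were named after their values were seen. Alternatives were each replicate list alone, the dm3 lists, other match and start-site distances, other windows, merged peaks and the stronger pooled peaks.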

Additional observations from a re-analysis of the deposited data

How the results depend on the processing

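Of 32 alternative values for 7 results, 19 stayed within the counting error, the spread between replicates or, for counts, 1.5 times of the main value. Taking 1 replicate list alone gave 264 to 601 peaks on chromosome 4, a median signal of 10.4 to 14.3 (each list has its own scale), a best rank of 354 to 906 and a mean GC content of 34.7% to 36.5%. The low count is that of replicate 1. The promoter share of members was 13.6% with start sites within 200 bp, 31.0% within 1000 bp, 12.3% with a start site under the peak itself and 31.9% among pooled peaks above the list's median signal. The share matched in both replicates was 5.44% with summits within 50 bp, 25.7% within 250 bp, 28.0% with any overlap and 23.9% among the stronger peaks. The share in the optimal list was 0.209% under every match rule, 0.469% among the stronger peaks and 0.402% (2 of 497) in dm3. No paired analysis was possible because the 2 replicates form 1 group. Read depth, the control and the sex mix of each replicate are unknown here and limit every comparison between the replicates.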
